A study of Mus musculus with 18 samples.

Results

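The insulin-like growth factor (IGF) axis was followed here through 9 genes chosen by name, of 33440 genes in the mouse data, in 2 RNA-sequencing experiments on adipocytes with more or less of the transcription factor IRF3. The genes were the ligands Igf1 and Igf2, the receptor Igf1r, and the binding proteins Igfbp2, Igfbp3, Igfbp4, Igfbp5, Igfbp6 and Igfbp7. In the first experiment, stromal vascular fraction (SVF) cells of inguinal white adipose tissue from C57BL/6 mice with the IRF3-2D allele (IRF-2D in the sample labels), which encodes a constitutively active IRF3, were differentiated to adipocytes and given an adeno-associated virus, which was AAV-GFP in the 3 WT cultures and AAV-GFP-Cre in the 3 FI3OE cultures. Both arms carried the allele, so they differed in Cre itself as well as in IRF3-2D. In the second experiment, C57BL/6 mice received a high-fat diet for 8 weeks at thermoneutrality, and RNA on tagged adipocyte ribosomes was pulled down by translating ribosome affinity purification (TRAP) from frozen epididymal white adipose tissue (eWAT) of FI3KO-Ad-NuTRAP mice, in which adipocytes lack IRF3 (FI3KO, 6 libraries), and of Ad-NuTRAP mice (WT, 6 libraries). All of these mice carried the ribosome tag, and the loss of IRF3 depended on Adipoq-Cre, which acts in adipocytes. Epididymal fat is a male depot, and the study's methods describe its mice on this diet as male. The labels do not give the age of the TRAP mice. Each library was labelled a biological replicate.

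IGF ligands bind the receptor tyrosine kinase IGF1R on the cell surface, which signals through the same adaptors as the insulin receptor. The binding proteins are secreted, hold the ligands in blood and matrix, and release them when proteases such as the pappalysins cut them. Adipose tissue is a source of IGF ligand besides the liver, and its stromal cells, macrophages and adipocytes can all make it.

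The promoters are shown for Igf1, Igfbp4 and Igfbp5, the members whose change in culture kept its call under each alternative tried, as the 250 bases before the RefSeq start on the gene's strand in GRCm38.p6. Capitals were reserved for the interferon-stimulated response element, the motif that IRF factors bind, searched on both strands as GAAA, any 2 bases and GAAA again, and none of these 3 stretches held it. They lie at chr10:87860861-87861110 on the plus strand for Igf1, chr11:99040994-99041243 on the plus strand for Igfbp4 and chr1:72874866-72875115 on the minus strand for Igfbp5. The Igf1 stretch lies inside the gene's annotated span, which begins at 87858265. The bases before that earlier position were not searched, so the absence of the motif holds only for the stretch shown. Below them stand, for comparison, 60 bases from the promoter of the interferon-stimulated gene Ifit1 (chr19:34640769-34640828, plus strand) and the 30 bases around the only match among the members (Igf2, chr7:142658760-142658789, minus strand).
Igf1: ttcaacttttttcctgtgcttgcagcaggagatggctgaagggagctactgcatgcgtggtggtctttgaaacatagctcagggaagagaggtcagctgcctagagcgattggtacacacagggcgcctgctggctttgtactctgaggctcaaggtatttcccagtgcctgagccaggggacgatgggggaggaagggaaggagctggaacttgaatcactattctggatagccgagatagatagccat
Igfbp4: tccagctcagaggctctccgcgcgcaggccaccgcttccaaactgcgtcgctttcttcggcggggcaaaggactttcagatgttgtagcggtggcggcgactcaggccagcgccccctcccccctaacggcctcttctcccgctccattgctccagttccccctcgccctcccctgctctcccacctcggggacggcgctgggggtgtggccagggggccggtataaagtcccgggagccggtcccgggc
Igfbp5: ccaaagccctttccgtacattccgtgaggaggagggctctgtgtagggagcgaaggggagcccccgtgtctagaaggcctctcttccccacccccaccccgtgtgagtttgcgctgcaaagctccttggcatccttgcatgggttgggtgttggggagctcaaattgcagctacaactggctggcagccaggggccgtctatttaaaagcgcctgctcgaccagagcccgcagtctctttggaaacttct
Ifit1: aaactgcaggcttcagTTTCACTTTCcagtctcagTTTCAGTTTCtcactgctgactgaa
Igf2: aattatacgcTTTCTGTTTCtctccgtgct
RefSeq windows of 300 bases (250 before and 50 after the start) were found for all 9 members, 13 windows in all. Counted from the start, the Igf2 match began at 25 in 1 of its windows, and the Ifit1 matches at -104 and -85. Of all 32851 windows, 3.44% held this motif. The palindrome TTCNNNGAA, which STAT factors bind, was in none of the 13 member windows and in 8.3% of all windows, and TGTTTAC, a FOXO site, was in none of them and in 3.65% of all. GC content differed between the printed promoters and was 69.2% for Igfbp4, 58.8% for Igfbp5 and 52.8% for Igf1.

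The libraries held between 21541334 and 40490283 estimated reads. Irf3 itself rose in FI3OE, from 58.6, 56.9 and 56.8 CPM (reads of the gene scaled by the library's total) in the 3 WT libraries to 92.1, 100.3 and 90.8 CPM (log2 fold change 0.73, adjusted p = 3.30e-07, edgeR). In TRAP RNA it fell from a median of 20.6 CPM (17.2 to 23.2) in WT to 15.2 CPM (12.4 to 18.8) in FI3KO (log2 fold change -0.35, adjusted p = 0.0198, edgeR), and the ranges overlapped. This fold change depended on the gene model, since correcting for transcript length turned it to 0.71. Its reads lay on different transcripts in the 2 groups. The coding Irf3-202 received 0 reads in each FI3KO library and 164 to 388 in each WT library, the short coding Irf3-211 received 89.9 to 175.3 in FI3KO and 0 to 7.65 in WT, and the coding Irf3-213 received 81.7 to 132.9 in FI3KO and 0 to 175.4 in WT. Adipocyte markers (12 genes, among them Adipoq and Plin1) summed to between 28098 and 34357 CPM in the TRAP libraries and between 7770 and 8054 CPM in the cultures. The cultures also held 19527 to 20105 CPM of 12 stromal progenitor markers and 2095 to 2338 CPM of 12 macrophage markers, which in TRAP RNA were at 1041 to 2775 and at 14.9 to 92.4 CPM. In such bulk samples, fewer cells of a type and less RNA per cell cannot be told apart. Replicates 1 and 2 of the FI3KO libraries stood apart from replicates 3 to 6, as described below. Fold changes in TRAP RNA of Irf3, called members and other called genes of the pathway are therefore also given for each set. For Irf3 the log2 fold change was -0.18 in replicates 1 and 2 (adjusted p = 0.452, edgeR) and -0.45 in replicates 3 to 6 (adjusted p = 0.00892, edgeR). WT TRAP replicates 1 and 2 were closer to each other than any other TRAP pair but differed beyond counting noise, and were kept as 2 samples.

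Levels were compared between genes per length, as TPM (reads divided by transcript length and scaled within the library) summed over each gene's transcripts. In WT TRAP RNA the order was led by Igfbp4, which limits IGF action outside cells, at 1661 ± 55.4 TPM (SD, n = 6), followed by Igfbp5, a binding protein that attaches to extracellular matrix, at 371.9 ± 52.4 TPM. Igf1 followed at 108.6 ± 14.6 TPM and Igfbp7, a secreted protein with low affinity for IGF, at 76.8 ± 10.1 TPM. These 4 genes kept this order in each of the 6 libraries, although the ranges of Igf1 (89.1 to 124.2 TPM) and Igfbp7 (65.1 to 95.1 TPM) overlapped. The other 5 members were low. Igfbp6, which prefers the ligand IGF2, stood at 3.57 ± 2.52 TPM, Igfbp3, the main carrier in blood, at 3.19 ± 0.254 TPM, and Igf1r at 2.89 ± 0.635 TPM, and neighbours among these 3 did not differ beyond their spread. Igf2, at 4 to 14 reads per library, and Igfbp2, at 2 to 6 reads, were near the limit of detection in WT TRAP RNA.

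The WT cultures had another order. Igfbp4 was again highest at 569.6 ± 13.2 TPM (SD, n = 3), followed by Igfbp7 at 430.8 ± 21.8, Igfbp6 at 203.3 ± 7.97, Igfbp3 at 130.8 ± 8.44, Igf1 at 79.4 ± 3.17, Igf1r at 39.9 ± 2.17, Igfbp2 at 24.98 ± 3.67, Igfbp5 at 11.6 ± 0.712 and Igf2 at 5.45 ± 2.05 TPM. No neighbours in this order overlapped, but Igfbp4 led only with its processed transcript Igfbp4-203 counted, as described below. Igfbp5 had rank 2 in TRAP RNA and rank 8 in culture, while Igfbp6 and Igfbp3 had ranks 5 and 6 in TRAP RNA and ranks 3 and 4 in culture. Depot, diet, culture and preparation differed together between the 2 WT groups, so no test was made between them.

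**Figure D1:**
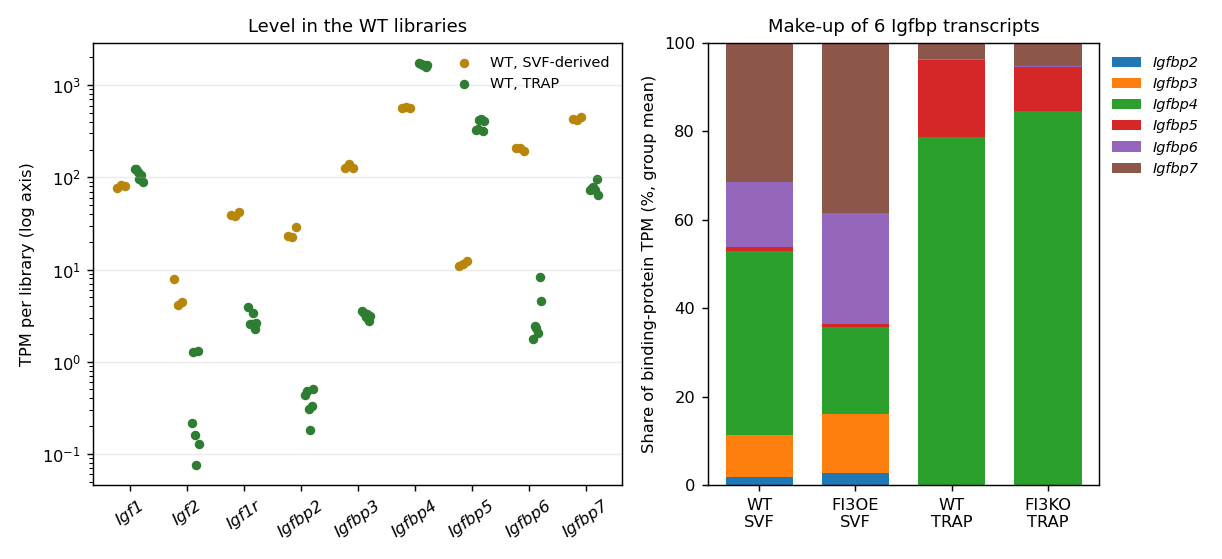
Left, TPM of the 9 members in each WT library (log axis, 3 SVF-derived and 6 TRAP libraries); right, mean share of each of the 6 Igfbp genes in their summed TPM in the 4 groups (percent). Igfbp4 and Igfbp5 make up nearly all of the TRAP bars, while Igfbp7, Igfbp6 and Igfbp3 hold large shares in culture.

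The level of Igfbp4 rested in part on short transcripts. Its main coding transcript, Igfbp4-201 (3831 bases), took a median of 72.9% of the gene's reads in WT cultures and 70.0% in WT TRAP RNA but a median of only 149 and 408 TPM. TPM divides by length, and the 785-base processed transcript Igfbp4-203 took 21.8% and 26.04% of the reads. Igfbp4-201 and the other coding transcript with many reads, Igfbp4-205 (489 bases), held 148.5 to 153.4 and 119.97 to 134.8 TPM in WT cultures and 361.0 to 425.6 and 167.3 to 334.9 TPM in WT TRAP RNA. In WT TRAP RNA Igfbp4-201 lay above the main coding transcript of Igfbp5, Igfbp5-201 (253.1 to 329.7 TPM). In WT cultures Igfbp4-201 and Igfbp4-205 each lay below Igfbp7 (413.2 to 455.2 TPM), whose reads fell mainly on the coding Igfbp7-201. Igfbp4 ranked above Igfbp7 there only with Igfbp4-203 (268.8 to 287.9 TPM) counted. How Salmon divides reads between such transcripts is uncertain, and this uncertainty is not in the values. Igf1 reads fell mainly on the 7052-base Igf1-202, with a median share of 88.4% in WT cultures and 83.3% in WT TRAP RNA. Igfbp5 reads fell mainly on Igfbp5-201 (6006 bases), with 81.2% and 82.7%.

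The first comparison asked how active IRF3 changes gene expression in cultured adipocytes. FI3OE cells had more mRNA of both ligands and less of the binding proteins Igfbp4 and Igfbp5. Igf1 was 1.82-fold and Igf2 2.11-fold higher, Igfbp6 was 1.38-fold higher, Igfbp4 was 2.55-fold lower and Igfbp5 was 1.76-fold lower. All 9 members passed the filter on low counts. Of these, 3 rose and 2 fell at an adjusted p of at most 0.05, and 4 did not pass. Over all 16105 genes tested, 37.0% passed this threshold, 20.2% upward and 16.8% downward. Igf2 (higher) and Igfbp4 (lower) also passed the study's cutoff of 1 on the log2 scale, as did 3.62% of all genes tested, 1.99% upward and 1.63% downward. For these 5 called members the 2 groups did not overlap, which held for 49.8% of all genes tested, 24.1% upward and 25.7% downward. The median absolute log2 fold change was 0.46 over the 9 members and 0.19 over all genes tested. The members were chosen with earlier results of these data known, so these 2 medians are set side by side only as a description.

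Igf1 (chr10:87858265-87937042, plus strand, GRCm38) encodes the ligand through which growth hormone drives much of postnatal growth. Its 3 WT libraries held 189.2, 205.1 and 205.5 CPM and its 3 FI3OE libraries 360.8, 369.3 and 347.9 CPM. Every FI3OE library lay above every WT library, by far more than the spread within either group (log2 fold change 0.86, SE 0.045, adjusted p = 6.85e-08, edgeR quasi-likelihood test with Benjamini-Hochberg adjustment). Igf2 (chr7:142650766-142666816, minus strand), the imprinted ligand of fetal growth, was much less abundant. It held 3.97, 3.20 and 3.31 CPM in WT and 6.42, 7.24 and 8.15 CPM in FI3OE, from 69 to 301 reads per library. The groups were again separate (log2 fold change 1.08, SE 0.135, adjusted p = 7.55e-05, edgeR). The value was below the cutoff of 1 without FI3OE replicate 3 (0.99) and with a correction for transcript length (0.93). In a fit of all 18 libraries Igf2 and Igfbp6 did not pass (adjusted p = 0.209 and adjusted p = 0.538, edgeR).

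Among the binding proteins, Igfbp4 (chr11:99041244-99054392, plus strand) changed most. Its WT libraries held 343.8, 342.0 and 337.9 CPM and its FI3OE libraries 131.0, 126.6 and 138.4 CPM (log2 fold change -1.35, SE 0.040, adjusted p = 1.21e-09, edgeR). The WT values lay within a few CPM of each other and all FI3OE values were far below them. Both Igfbp4-201 and Igfbp4-203 were lower, since the share of Igfbp4-201 was 71.9 to 73.8% in WT and 73.1 to 74.4% in FI3OE. Igfbp5 (chr1:72857932-72874884, minus strand) held 29.4, 30.6 and 34.4 CPM in WT and 15.9, 20.2 and 16.9 CPM in FI3OE. These groups were separate as well (log2 fold change -0.82, SE 0.091, adjusted p = 3.12e-05, edgeR). Igfbp6 (chr15:102144362-102149511, plus strand) went the other way, with 74.9, 72.8 and 70.7 CPM in WT and 97.7, 99.9 and 100.02 CPM in FI3OE (log2 fold change 0.46, SE 0.036, adjusted p = 1.70e-06, edgeR).

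The receptor and the other binding proteins did not pass the test. Igf1r (chr7:67952827-68233668, plus strand) was at 133.8, 129.2 and 132.6 CPM in WT and 143.6, 131.8 and 136.3 CPM in FI3OE, and the 95% interval of its log2 fold change ran from -0.01 to 0.16. Igfbp7 (chr5:77349240-77408041, minus strand) was at 137.0, 135.6 and 147.9 CPM in WT and 135.0, 134.2 and 140.0 CPM in FI3OE, with an interval from -0.12 to 0.08. The values of these 2 genes were intermixed between the groups. Igfbp3 (chr11:7206086-7213923, minus strand) and Igfbp2 (chr1:72824503-72852474, plus strand) lay just outside the threshold, with log2 fold changes of 0.14 (adjusted p = 0.0522, edgeR) and 0.30 (adjusted p = 0.0539, edgeR) and 1 WT library each within the range of FI3OE. These 2 calls depended on the settings, since Igfbp2 passed under 6 and Igfbp3 under 8 of 15 alternatives.

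**Figure D2:**
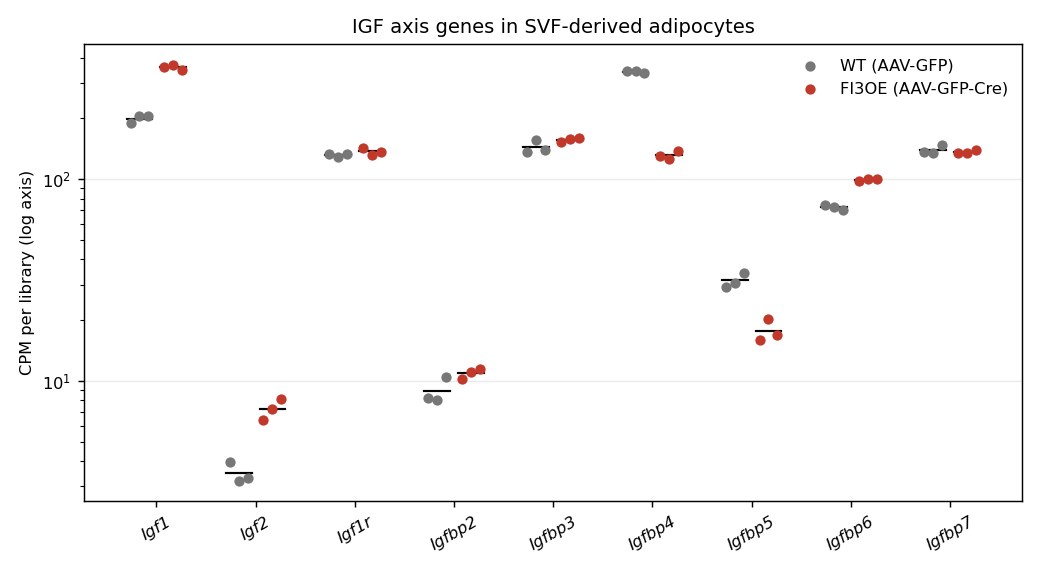
CPM of the 9 members in each SVF-derived library (log axis, 3 WT and 3 FI3OE libraries, black bars are group means). Igf1, Igf2 and Igfbp6 are separate and higher in FI3OE, Igfbp4 and Igfbp5 are separate and lower, and the other 4 overlap.

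As a result of these shifts the make-up of the binding-protein mRNA differed. Igfbp4 took 40.6 to 42.3% of the summed TPM of the 6 Igfbp genes in WT and 18.9 to 20.5% in FI3OE, while the share of Igfbp6 was 14.1 to 15.2% and 24.8 to 25.3%. The sum itself was 1353 to 1382 TPM in WT and 1027 to 1106 TPM in FI3OE. Per Igf1 TPM, there were 16.9 to 17.8 TPM of binding proteins in WT and 6.76 to 7.94 in FI3OE. These TPM ratios are descriptions and include the short Igfbp4 transcripts. They also include Igfbp7, of low affinity for IGF, which held 29.9 to 33.0% of the sum in WT and 38.0 to 38.9% in FI3OE.

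Some cell-type markers also differed with FI3OE, where 37.0% of all genes tested passed (20.2% upward and 16.8% downward). Macrophage markers summed to 2192 to 2338 CPM in WT and 2095 to 2109 CPM in FI3OE, so these sums did not overlap, with 3 of 12 genes higher, 3 lower and 6 not passing. Mrc1 alone, at a mean of 435.9 CPM in WT and 235.2 CPM in FI3OE, fell by more than the mean sum did. Csf1r and Itgam were also lower, and C1qa, C1qc and Trem2 were higher. Stromal progenitor markers summed to 19527 to 20105 CPM in WT and 19803 to 19854 CPM in FI3OE, with 4 of 12 higher and 2 lower. Of 12 adipocyte markers 3 were higher and 7 lower, and their sums overlapped (7912 to 8002 CPM in WT and 7770 to 8054 CPM in FI3OE). Of 7 mural markers tested 1 was higher and 3 were lower, and the mural sums overlapped (1045 to 1172 CPM in WT and 1026 to 1155 CPM in FI3OE). Endothelial markers summed to 26.5 to 30.02 CPM in WT and 30.03 to 32.8 CPM in FI3OE, with 1 of 8 tested higher, and the 1 lymphocyte marker tested was lower. Muc16, of the mesothelial list, was at 0 in all cultures. Their part in the changes of Igf1 and Igfbp4 was not tested.

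The second comparison asked which ribosome-bound mRNAs of adipocytes differ when the cells lack IRF3 in obese mice. FI3KO adipocyte RNA held 1.87-fold less Igfbp5 and 1.89-fold less Igfbp3, and 1.46-fold more Igf1r and 1.36-fold more Igfbp7. Igf1 and Igfbp4 did not pass the test. Of the 9 members, 7 passed the filter on low counts, of which 2 rose, 2 fell and 3 did not pass, and Igf2 and Igfbp2 were too low to test. Over all 13624 genes tested, 37.4% passed, 19.1% upward and 18.3% downward. In edgeR, 0 of the 7 members passed both the adjusted p and the log2 cutoff of 1, as 6.61% of all genes did (1.74% upward and 4.87% downward), and 4 had an unadjusted p under 0.05. The DESeq2 Wald test likewise gave 0. The groups did not overlap for Igfbp5, Igfbp3 and Igf1r, against 15.2% of all genes tested (5.39% upward and 9.82% downward).

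Igfbp5 carried the clearest difference. Its lowest, median and highest values were 827.5, 943.4 and 1069 CPM in the 6 WT libraries and 400.5, 474.3 and 618.9 CPM in the 6 FI3KO libraries, so that all FI3KO libraries lay below all WT libraries (log2 fold change -0.90, SE 0.110, adjusted p = 0.000165, edgeR). At 11601 to 37002 reads per library, this is the member measured at the greatest depth beside Igfbp4. In culture Igfbp5 was also lower in FI3OE, so that its log2 fold change was -0.82 with active IRF3 and -0.90 with loss of IRF3, in different depots and kinds of RNA. Igfbp3 was far less abundant, with 22 to 124 reads per library. It stood at 3.07, 3.26 and 3.65 CPM (lowest, median and highest) in WT and at 0.680, 1.81 and 2.51 CPM in FI3KO, again with no overlap (log2 fold change -0.92, SE 0.274, adjusted p = 0.0189, edgeR). The call was lost when the closest pairs of libraries were counted as 1 (adjusted p = 0.121, edgeR). The FI3KO libraries spread much more than the WT libraries for this gene, with an SD of 0.747 CPM against 0.208 CPM.

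Igf1r rose from 9.76, 11.8 and 13.9 CPM (lowest, median and highest) in WT to 15.6, 16.9 and 17.4 CPM in FI3KO. Each FI3KO library was above each WT library (log2 fold change 0.55, SE 0.095, adjusted p = 0.00099, edgeR). With a correction for transcript length this fell to 0.28 and no longer passed (adjusted p = 0.118, edgeR), against a range of 0.28 to 0.66 over 26 alternatives. Igfbp7 rose from 19.7, 21.9 and 30.005 CPM to 25.1, 29.6 and 35.5 CPM (log2 fold change 0.44, SE 0.112, adjusted p = 0.00814, edgeR), with the ranges overlapping only through WT replicate 5 at 30.005 CPM. This call too was lost with the closest pairs counted as 1 (adjusted p = 0.0768, edgeR). The gene lies on the strand opposite to Polr2b, which it overlaps, and the library kit does not mark strand, so reads of the 2 genes in the shared bases cannot be told apart.

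Igfbp4, which changed most in culture, did not pass in TRAP RNA, and its interval was narrow. It ranged from 861.8 to 915.7 CPM in WT and from 754.2 to 943.5 CPM in FI3KO, and the 95% interval of its log2 fold change ran from -0.12 to 0.16 (adjusted p = 0.833, edgeR). Igf1 ranged from 185.9 to 255.4 CPM in WT and from 141.5 to 279.5 CPM in FI3KO (log2 fold change 0.11, adjusted p = 0.61, edgeR). Here the FI3KO values extended beyond the WT range on both sides. Igfbp6, at 12 to 70 reads per library, had a log2 fold change of -0.37 with an interval from -1.38 to 0.65. Igf2 was counted with at most 18 reads and Igfbp2 with at most 6 reads in any TRAP library. FI3KO replicate 4 held 0 reads of Igf2, which allows up to 3 reads when only counting error is considered.

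**Figure D3:**
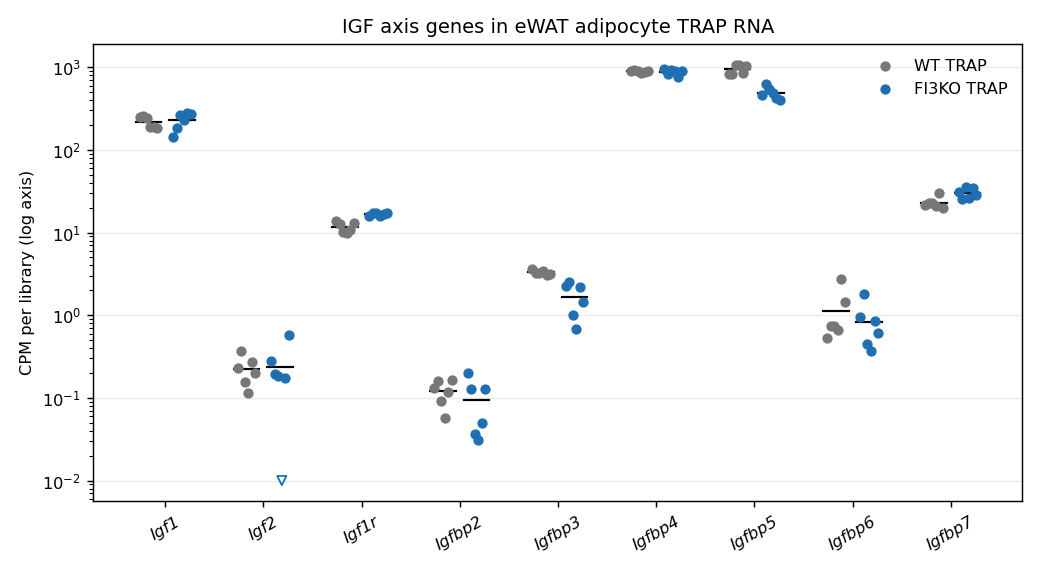
CPM of the 9 members in each TRAP library (log axis, 6 WT and 6 FI3KO libraries, black bars are group means, and the open triangle at the lower edge marks a library with 0 reads). Igfbp5 and Igfbp3 are separate and lower in FI3KO, Igf1r is separate and higher, and Igf1 and Igfbp4 overlap.

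In the make-up of binding-protein mRNA in TRAP RNA, Igfbp4 took 76.5 to 81.2% of the summed TPM in WT and 81.5 to 86.4% in FI3KO. The share of Igfbp5 was 15.2 to 19.8% in WT and 8.28 to 13.5% in FI3KO.

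Some cell-type markers differed in the same libraries, where 37.4% of all genes tested passed (19.1% upward and 18.3% downward). Of the 12 adipocyte markers 6 were higher in FI3KO and 1 lower, with a log2 fold change of 1.83 for Cfd, 0.96 for Retn and -1.63 for Lep, while Adipoq did not pass (0.42, adjusted p = 0.115, edgeR). Their sums overlapped, at 29507 to 34357 CPM in WT and 28098 to 32956 CPM in FI3KO. The 12 macrophage markers summed to 33.8 to 92.4 CPM in WT and 14.9 to 40.9 CPM in FI3KO, with 9 of 11 tested genes lower, among them Lyz2 and Adgre1, and 1 higher, Cd14 (log2 fold change 1.66, adjusted p = 0.000919, edgeR). The 8 mural markers summed to 617.9 to 927.6 CPM in WT and 265.5 to 500.5 CPM in FI3KO. Most of this sum was Acta2, at 616.2 ± 104.4 CPM in WT and 261.8 ± 72.9 CPM in FI3KO (SD, n = 6 each). Of the 7 tested, Acta2 and Tagln were lower and the other 5 did not pass. Mean levels of these 5 in WT and FI3KO were 23.8 and 11.3 CPM for Pdgfrb, 95.7 and 70.02 CPM for Cspg4, 6.19 and 7.17 CPM for Notch3, 3.64 and 2.92 CPM for Myh11 and 3.38 and 4.56 CPM for Rgs5. The 12 stromal progenitor markers summed to 1534 to 2775 CPM in WT and 1041 to 1770 CPM in FI3KO, with 3 of 11 lower and 2 higher. Col1a1 alone fell by about as much as the mean of this sum did. Col1a1 (1005 CPM in WT and 271.4 CPM in FI3KO on average), Fbn1 (42.8 and 16.01 CPM) and Dpp4 (4.44 and 1.495 CPM) were lower, Dcn (27.3 and 68.5 CPM) and Dpt (75.9 and 113.2 CPM) were higher, and the defining marker Pdgfra (2.75 and 2.40 CPM) did not pass. Endothelial markers summed to 34.9 to 70.0 CPM in WT and 32.1 to 140.9 CPM in FI3KO (1 of 9 higher), mesothelial markers to at most 31.3 CPM (0 of 6 passed in edgeR) and lymphocyte markers to at most 1.43 CPM. These sums differed between the sets of replicates. In replicates 3 to 6, macrophage markers summed to 64.5 to 92.4 CPM in WT and 14.9 to 17.1 CPM in FI3KO, and stromal markers to 2008 to 2775 CPM and 1041 to 1505 CPM. In replicates 1 and 2, macrophage markers were at 34.5 and 33.8 CPM in WT and 31.6 and 40.9 CPM in FI3KO, and stromal markers were higher in FI3KO, at 1770 and 1599 CPM against 1558 and 1534 CPM. The mural sum was lower in FI3KO in both sets, at 487.3 and 500.5 CPM against 617.9 and 625.4 CPM in replicates 1 and 2. In these 2 replicates Igfbp5 was at 459.3 and 618.9 CPM in FI3KO against 827.5 and 827.7 CPM in WT, and Igfbp3 at 2.26 and 2.51 CPM against 3.65 and 3.27 CPM. Neither gene passed in these 2 replicates alone (adjusted p = 0.0658 for Igfbp5 and adjusted p = 0.163 for Igfbp3, edgeR), and the part of other cell types in these values was not tested.

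**Figure D4:**
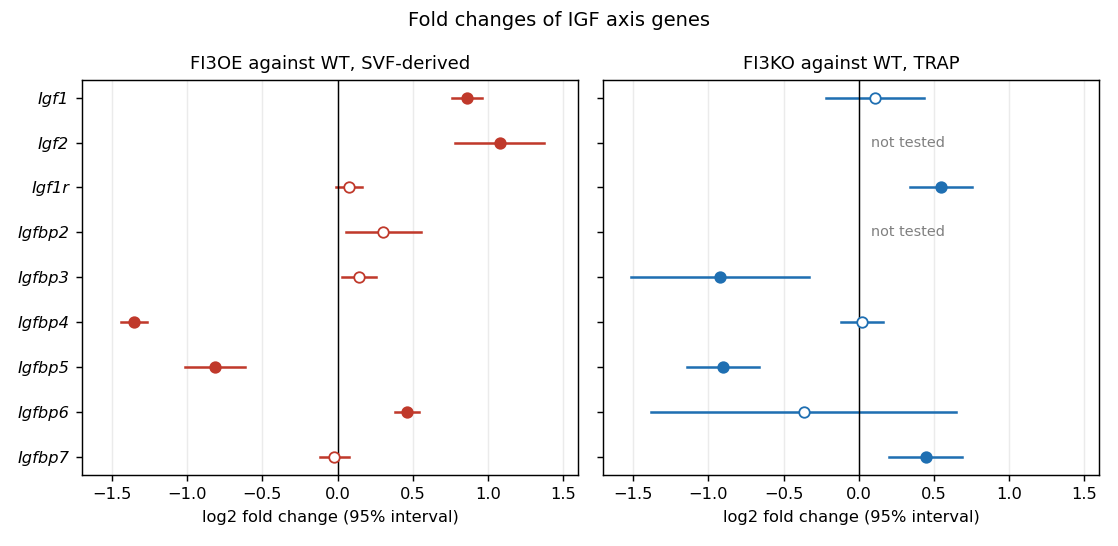
Log2 fold changes (points) with 95% intervals (lines) of the 9 members in FI3OE against WT cultures and of the 7 tested members in FI3KO against WT TRAP RNA (Igf2 and Igfbp2 are marked as not tested), filled where the adjusted p is at most 0.05. Igfbp5 lies below 0 in both panels, and Igfbp4 lies below 0 only in culture and near 0 in TRAP RNA.

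The 2 sets of TRAP replicates were compared next. FI3KO replicates 1 and 2 differed more from replicates 3 to 6 than those differed from each other, with a mean chi-square per gene between libraries of 124 to 299 against 18.5 to 95.2. In WT the same values were 83.3 to 146 against 9.14 to 141. The labels do not name these sets, so matching them between FI3KO and WT by replicate number is an assumption. The split itself was taken from an earlier analysis of these same data. The interaction p-values below are therefore for a split chosen from the data and describe it, without testing it independently. After subtracting group means, FI3KO replicates 1 and 2 were most like WT replicate 5 (r = 0.42 and 0.35). With the same-numbered WT libraries r was -0.21 and -0.29. The cause of the sets was not tested. The FI3KO effect differed between the sets for 2 of the 7 members by an interaction term, as it did for 26.5% of all genes tested.

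Igf1 was among these 2. In replicates 1 and 2 it held 247.9 and 255.4 CPM in WT and 141.5 and 185.6 CPM in FI3KO. In replicates 3 to 6 it held 185.9 to 242.8 CPM in WT and 232.3 to 279.5 CPM in FI3KO. Its log2 fold change was thus -0.56 (SE 0.116) in the first set and 0.42 (SE 0.093) in the other, and the difference of 0.99 passed the test (SE 0.171, adjusted p = 0.00146, edgeR interaction). Igfbp6 also turned, from 1.17 (SE 0.412) to -1.21 (SE 0.483), with a difference of -2.37 (SE 0.791, adjusted p = 0.0441, edgeR interaction), but it rests on at most 70 reads per library. Counting WT replicates 1 and 2 as 1 sample left 1 such member.

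The 4 called members kept their direction in both sets. Igfbp5 had a log2 fold change of -0.56 in replicates 1 and 2 and of -1.07 in replicates 3 to 6 (difference adjusted p = 0.0628, edgeR). Igf1r had 0.36 and 0.66, Igfbp3 -0.47 and -1.22, and Igfbp7 0.41 and 0.46. In replicates 1 and 2 alone, none of the 7 members passed an adjusted p of 0.05 in edgeR, where 3.56% of all genes did. In replicates 3 to 6 alone 5 members passed, and so did 50.6% of all genes.

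**Figure D5:**
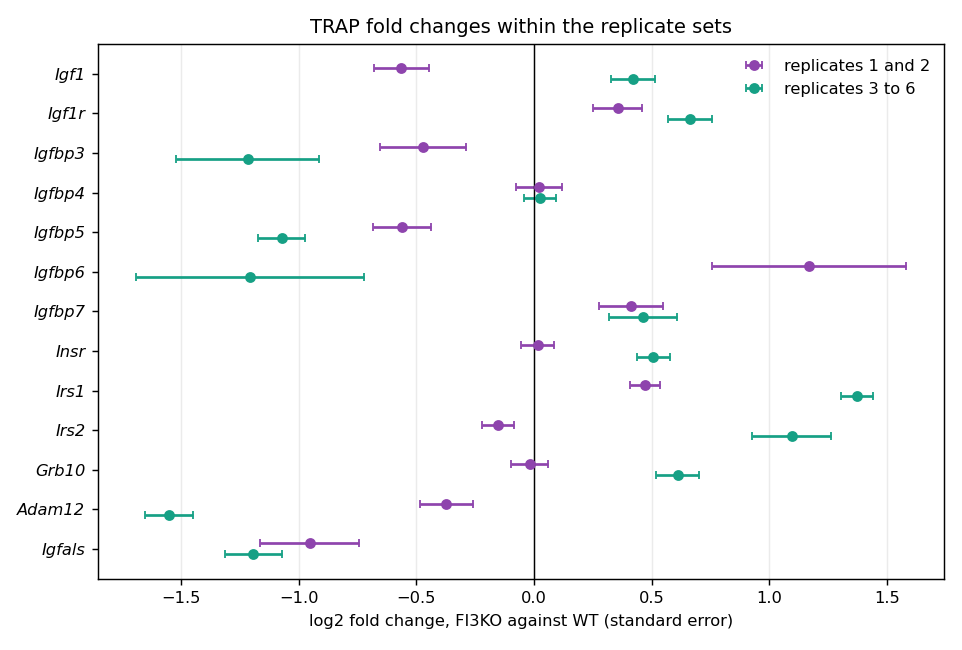
Log2 fold change of FI3KO against WT in TRAP replicates 1 and 2 (purple) and 3 to 6 (green), with standard errors, for the 7 tested members and 6 related genes. Igf1 and Igfbp6 lie on opposite sides of 0 in the 2 sets, while Igfbp5, Igfbp3, Igf1r and Igfbp7 lie on the same side.

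The other genes of the pathway were taken from a list of 26 receptors, adaptors, other binding proteins, proteases, protease inhibitors, growth hormone signalling genes and binding proteins of Igf2 mRNA. In culture 23 were tested, of which 3 rose, 7 fell and 13 did not pass, where 37.0% of all genes passed (20.2% upward and 16.8% downward). In TRAP RNA 19 were tested, of which 4 rose, 3 fell and 12 did not pass, where 37.4% of all genes passed (19.1% upward and 18.3% downward). The median log2 fold change of the list was -0.03 in culture and 0.10 in TRAP RNA, where that of all genes tested was -0.0047 and 0.016.

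The insulin receptor adaptors Irs1 and Irs2, which IGF1R also uses, were lower in FI3OE. Irs1 fell from 254.5, 240.4 and 238.5 CPM to 188.9, 194.4 and 186.3 CPM (log2 fold change -0.35, adjusted p = 2.87e-05, edgeR), and Irs2 from 62.2, 63.3 and 57.4 CPM to 40.0, 41.6 and 39.6 CPM (log2 fold change -0.58, adjusted p = 2.83e-06, edgeR). Neither gene's groups overlapped. Both calls were lost in a fit of all 18 libraries (adjusted p = 0.303 for Irs1 and adjusted p = 0.296 for Irs2, edgeR). In FI3KO TRAP RNA, Irs1 ranged from 132.0 to 179.8 CPM against 62.8 to 103.3 CPM in WT (log2 fold change 1.04, SE 0.144, adjusted p = 0.0003, edgeR). It was higher in both replicate sets, by 0.47 in replicates 1 and 2 and by 1.37 in replicates 3 to 6. Irs2 did not pass over all 12 libraries (log2 fold change 0.59, adjusted p = 0.0619, edgeR) and differed between the sets, with -0.15 and 1.10 (difference adjusted p = 0.00449, edgeR interaction). The insulin receptor Insr was 241.5 to 244.0 CPM in FI3OE against 273.9 to 291.3 CPM in WT (log2 fold change -0.21, adjusted p = 0.000722, edgeR), and in TRAP RNA its log2 fold change was 0.34 (adjusted p = 0.00834, edgeR), near 0 in replicates 1 and 2 (0.016) and 0.51 in replicates 3 to 6. Grb10, an adaptor that restrains both receptors, rose in FI3KO by 0.40 on the log2 scale (adjusted p = 0.0112, edgeR), with -0.018 in replicates 1 and 2 and 0.61 in replicates 3 to 6 (difference adjusted p = 0.0073, edgeR interaction). Its call was lost with the length correction (adjusted p = 0.0712, edgeR), and those of Grb10 and Insr with the closest pairs counted as 1.

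Igfals encodes the acid-labile subunit that joins IGF and Igfbp3 in a large complex in blood. It was lower in both comparisons, at 3.00 to 3.32 CPM in FI3OE against 4.68 to 5.39 CPM in WT (log2 fold change -0.68, adjusted p = 0.0016, edgeR) and at 48.6 to 81.1 CPM in FI3KO against 118.6 to 152.8 CPM in WT (log2 fold change -1.11, adjusted p = 0.000102, edgeR). Its groups did not overlap in either, and its TRAP fold changes by set were -0.95 (replicates 1 and 2) and -1.19 (replicates 3 to 6) on the log2 scale. Its promoters held the STAT palindrome, beginning at -236 in 1 of its windows and at -58 in another, and the FOXO site, at -242, counted from the start. Of all windows, 8.3% held the first motif and 3.65% the second. Among the related genes only Igfals was examined in this way, and a role of these motifs was not tested. Most of its reads lay on Igfals-204, annotated as a processed transcript, with a median of 72.5% in WT TRAP RNA against 19.6% on the coding Igfals-201. Adam12, a protease that can cut Igfbp3 and Igfbp5, was lower in FI3KO, with 30.9 to 58.9 CPM against 69.6 to 125.8 CPM (log2 fold change -1.14, adjusted p = 0.000529, edgeR), and did not pass in culture. By set, it stood at -0.37 for replicates 1 and 2 and at -1.55 for replicates 3 to 6 (difference adjusted p = 0.000646, edgeR interaction). Htra1, a secreted serine protease, was lower in FI3OE (log2 fold change -0.34, adjusted p = 0.000177, edgeR). Pappa, the pappalysin that cuts Igfbp4, averaged 71.8 CPM in WT cultures and 63.3 CPM in FI3OE (adjusted p = 0.0652, edgeR), and was near the limit of detection in TRAP RNA. Stc1, which inhibits the pappalysins, was lower in FI3KO at 0.128 to 0.666 CPM against 0.448 to 1.66 CPM (log2 fold change -1.57, adjusted p = 0.00948, edgeR). It rested on 4 to 54 reads per library, with -0.40 in replicates 1 and 2 and -2.02 in replicates 3 to 6.

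In culture Insrr, a receptor related to the insulin receptor, rose from 0.394 to 0.753 CPM in WT to 1.52 to 2.47 CPM in FI3OE (log2 fold change 1.92, adjusted p = 0.000482, edgeR). Igf2r, which clears IGF2 from the cell surface, fell by 0.16 (not called with the length correction, adjusted p = 0.216, edgeR), and the growth hormone signalling gene Stat5a fell by 0.30 on the log2 scale, while the adaptor Shc1 rose by 0.23 (in TRAP RNA it did not pass, with -0.13 in replicates 1 and 2 and 0.24 in replicates 3 to 6). Igf2bp1, an RNA-binding protein of Igf2 mRNA, rose by 0.66 in culture (adjusted p = 0.0226, edgeR), but this call held under only 8 of 15 alternatives. It was lost in DESeq2 (adjusted p = 0.0948), with all 18 libraries and without any of FI3OE replicates 1 and 2 and WT replicates 1 and 3 (adjusted p = 0.0557 to 0.0697, edgeR), and the value went to -0.017 with a correction for transcript length. Its relative Igf2bp2 rose by 0.67 in FI3KO (adjusted p = 0.0044, edgeR), with 0.36 in replicates 1 and 2 and 0.86 in replicates 3 to 6. Igfbp1, Igfbpl1 and Irs4 were at or near 0 reads.

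As a description of how the members vary within groups, each of the 7 tested in TRAP RNA was compared with 10911 other genes (10912 for Igfbp6) over the 12 TRAP libraries after subtracting group means, by Pearson's r on log2 CPM. The libraries share the replicate sets described above and differ in depth and tissue make-up, so no test was made. Igf1 was most like Zscan22, Map3k3 and Ebf1 (r = 0.97 each). Igfbp5 was most like Cdc42ep2 (0.95), Rhbdf1 (0.95) and the collagen gene Col6a2 (0.94). Igfbp3 was most like Il4ra (0.97), C1qtnf1 (0.96) and Ldb3 (0.96), Igfbp6 most like Med20 (0.95), Megf6 (0.93) and Plxna4 (0.93), and Igf1r most like Emsy (0.90), Rarg (0.85) and Ankzf1 (0.84). Igfbp4 was most like Borcs7 (0.90), Tmem11 (0.88) and Mief2 (0.87), and Igfbp7 most like H2-T23 (0.87), Spred1 (0.81) and 1600012H06Rik (0.79). No member was among the 3 genes most like another member, and r between members ranged from -0.56 for Igf1 with Igfbp6 to 0.55 for Igfbp3 with Igfbp6.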

How the data were processed

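RNA was measured in 18 libraries, grouped by the sample labels. The authors trimmed reads with fastp and quantified them with Salmon 1.4.0 against GRCm38, per the labels and methods, and deposited estimated counts, TPM and effective lengths for 118733 transcripts per library. RNA was depleted of rRNA and libraries did not mark strand. Here 99.3% of transcripts were assigned to genes with GENCODE M21, the other 883 were kept as genes, and estimated counts were summed and rounded. CPM are per total reads, and fold changes are edgeR's after TMM. Depth was 21541334 to 40490283 reads, which leaves genes of a few reads imprecise. In R 4.3.3, edgeR 4.0.16 (filterByExpr, quasi-likelihood test, Benjamini-Hochberg over all genes) was fitted to each experiment, with the study's cutoffs of 0.05 and 1. Members and lists were chosen with earlier results of these data known. Named genes were all members, genes of the related lists called in either comparison or near 0 in TRAP RNA or culture, marker lists, Irf3, and the 3 genes most like each tested member (mean log2 CPM of at least 1, prior count 2). Alternatives were DESeq2 1.42.0, filters, robust dispersion, length offset, all 18 libraries, replicate block, replicate sets, leaving out libraries or unmatched transcripts and, chosen after seeing the data, counting close libraries as 1. The test was checked on simulated data, but no outcome of that check is used here.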

Additional observations from a re-analysis of the deposited data

Results flagged for a closer look

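In 1 of 32 groups of 6 TRAP libraries examined, a single library lay far from the others, where chance gives about 1 in 20. This was Igfbp7 in WT replicate 5, at 30.005 CPM against 19.7 to 22.8 CPM in the other 5, so that the step to the next library was 0.699 of the span of all 6. That library also held the most Igfbp6 of the 12 (2.72 CPM) and the largest sum of mesothelial markers (31.3 CPM), and the part of either in this value was not tested.

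The effect of FI3KO differed between replicates 3 to 6 and replicates 1 and 2 for 8 genes among the 7 members and 19 related genes tested (interaction term, edgeR), where 26.5% of all genes differed. This split was chosen from these same data, and matching the sets by replicate number is an assumption. On the log2 scale the difference, later set minus earlier, was 0.99 for Igf1, -2.37 for Igfbp6, 0.50 for Insr, -1.18 for Adam12, 0.91 for Irs1, 1.25 for Irs2, 0.38 for Shc1 and 0.63 for Grb10. The endothelial marker sum was 88.4 and 140.9 CPM in FI3KO replicates 1 and 2 and 32.1 to 49.0 CPM in FI3KO replicates 3 to 6, and its part in these differences was not tested.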

How the results depend on the processing

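In culture, Igf1, Igfbp4 and Igfbp5 kept their direction and call under all 15 alternatives. Fitting all 18 libraries left 3 members called (5 in the reported fit and 5 to 7 under the other alternatives), 1 member past both cutoffs (2 as reported) and 3 related genes called (10 as reported, 9 to 11 under the others), namely Insrr, Igfals and Htra1, and Insr, Stat5a, Shc1 and Igf2r then had adjusted p = 0.322, adjusted p = 0.107, adjusted p = 0.192 and adjusted p = 0.158 (edgeR). With a length offset 1 member passed both cutoffs, and the log2 fold change was -0.10 for Igf1r and -0.017 for Igf2bp1. Leaving out single libraries gave 1 to 2 members past both cutoffs and -0.044 to 0.023 for Igfbp7. In TRAP RNA, Irs1 kept its call under all 26 alternatives. Without single libraries, 0 to 1 members passed both cutoffs (Igfbp3 did without FI3KO replicates 1, 2 or 5), Igfbp4 was at -0.023 to 0.053, Igfbp6 at -0.76 to 0.094 (positive without WT replicate 5), and 4 to 9 members kept their rank in level (4 without WT replicate 5). In replicates 3 to 6, 2 members passed both cutoffs. In replicates 1 and 2, 0 members and 1 related gene were called (4 and 7 as reported), with -0.56 for Igf1, 1.17 for Igfbp6, -0.15 for Irs2, -0.018 for Grb10 and -0.18 for Irf3. The length offset gave 0.71 for Irf3 and -0.015 for Igfbp4. Counting close pairs as 1 left 2 members called (Igfbp3 had adjusted p = 0.121 and Igfbp7 adjusted p = 0.0768, edgeR) and Irf3 at -0.30, and counting WT replicates 1 and 2 as 1 left 1 member that differed between the sets. Replicate numbers did not pair the samples (r of same-numbered deviations -0.29 to 0.10). With the replicate block, 1 TRAP member passed both cutoffs (Igfbp3, -1.04), in culture Igfbp2 and Igfbp3 became called (adjusted p = 0.0375 and adjusted p = 0.0341, edgeR) and 11 related genes were called against 10, Irf3 was at -0.36 (adjusted p = 0.0538, edgeR), and the genes called numbered 5658 in culture and 3632 in TRAP RNA. Each other member and each related gene called in the reported fit kept its call under the block. Over all genes, 5960 were called in culture but 3800 with the length offset and 1572 with all 18 libraries (342 against 583 past both cutoffs). In TRAP RNA 5095 were called but 500 in replicates 1 and 2 and 2448 with close pairs as 1, and 901 passed both cutoffs but 1868 in replicates 3 to 6, 191 in replicates 1 and 2, 1355 with all 18 libraries and 574 with at least 10 counts in every library. Causes were not tested. In TRAP RNA, Igf2 and Igfbp2 had at most 18 reads per library and were not tested, and Igfbp6 and Igfbp3 had at most 70 and 124.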
